A study of Mus musculus with 103 samples.

Results

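Prom1-positive cells of the small intestine were set against Prom1-positive cells of 7 other untreated mouse organs, kidney, liver, lung, prostate, salivary gland, stomach and uterus. The members are the 3 samples whose source label is small intestine, of 40 sorted-cell samples in the series, which also holds 63 arrays of dissected tumours and metastases. They were chosen by that label alone and by no measured value. The other organs gave 25 samples, namely 4 of kidney, 5 of liver, 4 of lung, 3 of prostate, 3 of salivary gland, 2 of stomach and 4 of uterus.

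The study followed Prom1-expressing cells and their progeny in several mouse organs and switched on cancer genes in them. Each sorted sample came from a tissue broken up into single cells, freed of red cells and dead cells, and enriched with magnetic beads against the Prominin-1 protein. All 8 organs are labelled as normal primary cells. No genotype, strain, sex or age, no injury and no treatment is given for these samples in the labels, which also do not say whether the samples of an organ came from separate animals, so the p-values reported here rest on sample-to-sample spread that may in part be technical in origin. Purity after bead sorting is not given in the sources used here, and in such bulk samples fewer cells of a type and less RNA per cell cannot be told apart.

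Prominin-1 is a membrane protein of cell protrusions, and in the mouse small intestine Prom1-expressing cells at the crypt base overlap with the Lgr5-positive stem cells. Those stem cells feed a zone of dividing progenitors, which mature into absorptive enterocytes and into secretory Paneth, goblet, enteroendocrine and tuft cells. Enterocytes carry digestive enzymes and transporters on a brush border of microvilli, export dietary fat in lipoproteins and hold an intestinal share of drug and nitrogen metabolism.

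RNA was measured on Affymetrix mouse expression arrays, and the deposited values are levels on the log2 scale that run between 1.85 and 14.36. A difference below is the mean of the 3 small intestine samples minus the mean of the 7 organ means, so each organ weighs the same and a difference of 1 is a doubling of signal. A gene was called higher or lower where limma's adjusted p was under 0.05 and the difference was at least 1. Of 17098 genes with a named probe set, 13108 passed the filter on low levels, a group mean over 4.06. Of these 1870 were called higher in small intestine (14.3%) and 1984 lower (15.1%), 29.4% in all, and the median difference of all genes tested was 0.03. Centring each array on its own median moved that median to 0.19, so small differences are relative to the scaling used. All 3 small intestine samples lay above every sample of the other organs for 591 genes (4.51%) and below every one for 277 (2.11%). The 3′ minus 5′ difference of Gapdh, a measure of RNA integrity, was 0.457 to 0.631 in small intestine. It was 0.793 to 1.386 in lung, 0.984 to 1.092 in prostate and 0.626 to 0.726 in stomach. In uterus it was 0.335 to 0.88 and in salivary gland 0.138 to 0.52. Kidney and liver, given below, were higher than small intestine. The part of RNA integrity in these calls was not tested. The 3 small intestine arrays correlated with each other at r of 0.964 to 0.976 over all 45141 probe sets. Markers of intestinal epithelium such as Alpi and Cdh17, given below, were present in all 3 samples. Both are among the largest increases, so their match to the label follows in part from that choice. They do not tell small from large intestine here. No normal large intestine was sampled, and their medians in large intestinal adenomas were 9.2 and 11.58. Levels of different genes come from different probes and are not compared with each other.

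The gene used for the sort did not set the small intestine apart from the mean of the other organs. Prom1 was 8.01, 9.78 and 10.19 in the 3 small intestine samples, against a lowest of 2.64, a median of 10.59 and a highest of 12.19 in the other 25. The small intestine values lay inside the range of the others, and the difference was 0.05 ± 0.73 (SE, adjusted p = 0.96). By organ, Prom1 averaged 9.33 ± 1.15 in small intestine (SD, n = 3), against 10.76 in kidney, 3.45 in liver, 6.36 in lung, 10.31 in prostate, 10.55 in salivary gland, 11.99 in stomach and 11.54 in uterus. Small intestine was called higher than liver (5.88 ± 0.87, adjusted p = 7.8e-07) and did not pass the test against stomach (-2.66 ± 1.08, adjusted p = 0.087) or kidney (-1.43 ± 0.91, adjusted p = 0.2).

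The genes with the largest increases included Alpi, Cdh17, Defa39, Adh6a and Reg1. Alpi, intestinal alkaline phosphatase of the brush border, was 12.71, 12.1 and 12.38 in small intestine, against 2.63, 3.12 and 6.46 (lowest, median and highest of the 25 others). Its difference was 8.88 ± 0.27 (adjusted p = 4.5e-25), and no sample of another organ came near the small intestine values. Cdh17, the liver-intestine cadherin, was 11.77, 11.26 and 11.55 in small intestine, against 2.65, 3.25 and 3.92 in the others, and differed by 8.27 ± 0.36. The alpha-defensin probe set annotated to Defa39, an antimicrobial peptide of Paneth cells, was 12.35, 13.46 and 13.56 in small intestine, against 2.86, 3.48 and 8.98. Its probes can also match related defensins, and the highest of the other values were those of prostate, with a mean of 8.1. Adh6a, an alcohol dehydrogenase, was 11.99, 12.2 and 12 in small intestine and at most 5.31 elsewhere. Reg1, a secreted lectin, was 13.01, 12.31 and 12.73 in small intestine, against 2.53, 3.06 and 7.65.

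Of the 1870 genes called higher, 542 had all 3 small intestine samples above all others, and the 20 largest of these differed by 7.19 to 9.0. Besides those above they were Fabp2 (8.55), which binds fatty acids in enterocytes, the goblet cell products Zg16 (8.52) and Tff3 (8.15), Lgals2 (8.46), a galectin, Mep1b (7.86), the beta subunit of the protease meprin, Ccl25 (7.85), the chemokine that draws lymphocytes to the small bowel, Itln1 (7.72), a lectin of Paneth and goblet cells, Reg3b (7.64), an antibacterial lectin, Muc3 (7.26), a membrane mucin, and Guca2a (7.19), the hormone guanylin. Lypd8 (8.07), which keeps flagellated bacteria off the epithelium, Ms4a10 (7.8), Gm1123 (7.86), 9130208D14Rik (8.4) and 2010106E10Rik (7.66) completed the 20. Stomach held the highest of the other organ means for 8 of them, among them Lgals2 at 12.48 and Lypd8 at 10.61.

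**Figure D1:**
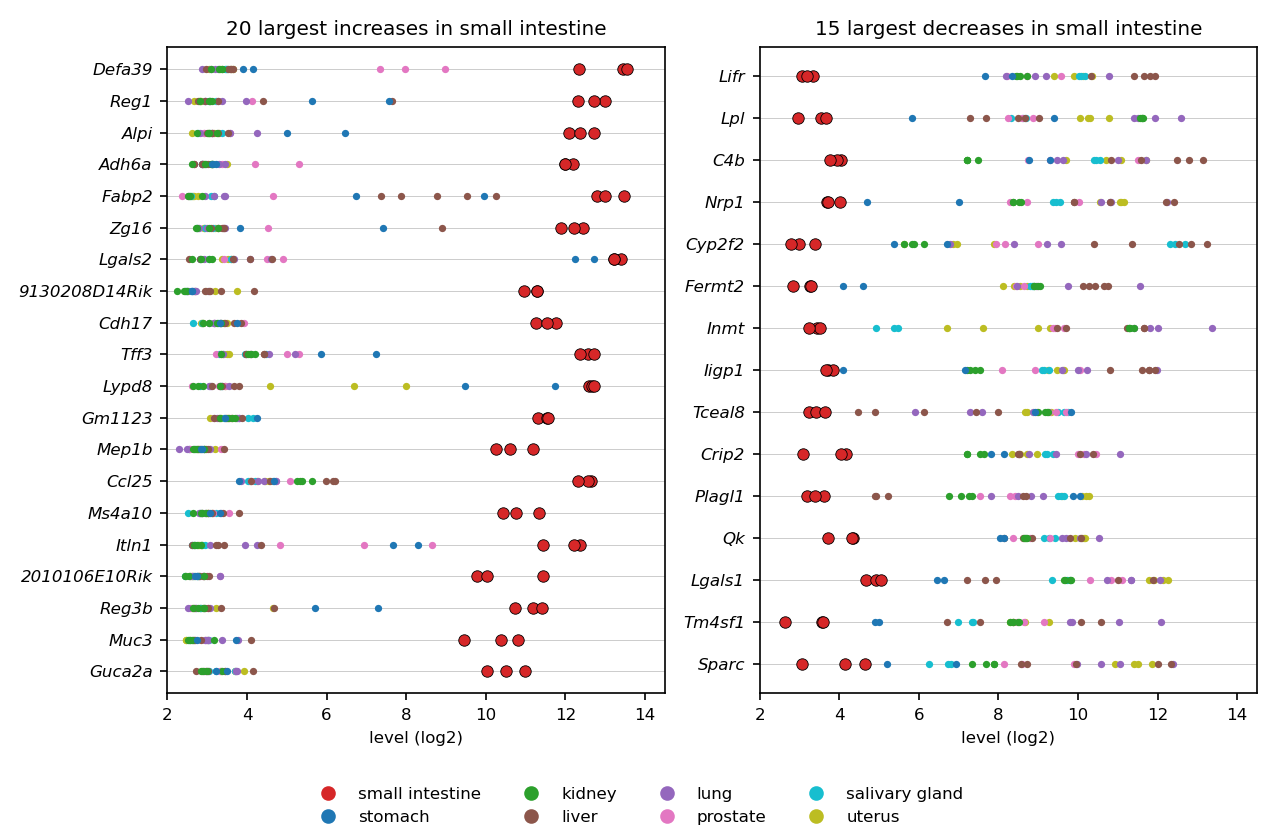
Log2 level (x axis) of the 20 genes with the largest increases and the 15 with the largest decreases in small intestine, 1 point per sample, with the 3 small intestine samples and the samples of the other 7 organs in separate colours. In every row the small intestine points lie outside the range of all other samples, which is how the genes were chosen, and among the increases Lgals2 is the row where stomach lies closest, at a mean of 12.48.

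The promoters of 4 genes that rose are shown as examples, searched for letters of the HNF4, CDX and GATA factor families, genes of which also rose. No selection rule is given for these 4, so their matches do not show how common such matches are. Each is a window of 300 bases around the gene's start, most of it upstream, from RefSeq on GRCm38.p6, written on the gene's strand, with capitals on exact matches to the HNF4 forms CAAAGTCCA and CAAAGGTCA, the CDX forms TTTATG and TTTATT, or the GATA form AGATAA, searched on both strands. Alpi (chr1:87101557-87101856, minus strand) holds CAAAGTCCA, Fabp2 (chr3:122894822-122895121, plus strand) holds TTTATT, Rbp2 (chr9:98490287-98490586, plus strand) holds CAAAGGTCA and AGATAA, both on the opposite strand, and Cyp3a11 (chr5:145879805-145880104, minus strand) holds CAAAGTCCA.
Alpi: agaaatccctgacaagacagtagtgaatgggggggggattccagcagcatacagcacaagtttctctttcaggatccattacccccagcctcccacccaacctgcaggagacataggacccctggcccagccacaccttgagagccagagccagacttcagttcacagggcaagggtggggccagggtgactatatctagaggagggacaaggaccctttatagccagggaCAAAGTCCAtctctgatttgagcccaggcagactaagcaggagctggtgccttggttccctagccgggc
Fabp2: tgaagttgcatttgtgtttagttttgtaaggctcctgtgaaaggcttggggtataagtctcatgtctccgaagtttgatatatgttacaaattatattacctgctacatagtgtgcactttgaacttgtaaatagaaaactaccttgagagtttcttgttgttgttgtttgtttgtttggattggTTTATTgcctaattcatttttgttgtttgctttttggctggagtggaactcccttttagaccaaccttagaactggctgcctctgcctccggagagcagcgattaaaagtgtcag
Rbp2: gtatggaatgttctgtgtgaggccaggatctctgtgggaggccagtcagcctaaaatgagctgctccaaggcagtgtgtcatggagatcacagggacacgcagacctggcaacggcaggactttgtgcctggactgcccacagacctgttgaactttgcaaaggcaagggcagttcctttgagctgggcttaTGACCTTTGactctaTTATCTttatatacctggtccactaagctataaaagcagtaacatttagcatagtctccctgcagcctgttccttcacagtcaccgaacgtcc
Cyp3a11: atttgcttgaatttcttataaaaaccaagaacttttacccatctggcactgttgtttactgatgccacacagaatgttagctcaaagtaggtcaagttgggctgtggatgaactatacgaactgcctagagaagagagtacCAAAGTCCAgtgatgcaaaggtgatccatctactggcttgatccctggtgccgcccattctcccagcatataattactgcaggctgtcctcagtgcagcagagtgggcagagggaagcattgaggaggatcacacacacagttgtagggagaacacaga
The matches begin at -19 in Alpi, -65 in Fabp2, -58 and -43 in Rbp2 and -109 in Cyp3a11, counted from the start site, and none overlaps another. Of 32841 mouse promoters of the same length, 0.475% hold CAAAGTCCA, 0.478% CAAAGGTCA, 11.9% TTTATG, 19.6% TTTATT and 11.2% AGATAA. The called genes with all 3 small intestine samples on top had 526 promoters, from 443 genes. Cyp3a11, which overlapped with liver, is not among them. There the shares were 1.52% (8 promoters), 0.951% (5 promoters), 10.1%, 13.3% and 8.37% in the same order. Over the 13426 promoters of all genes tested they were 0.559%, 0.402%, 7.33%, 12.3% and 7.15%. These matches describe letters in a window and do not show that a factor binds there.

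Digestive enzymes of the brush border rose as a group. Of 14 hydrolase genes tested, 13 were called higher and 1 lower, against 14.3% and 15.1% of all genes, and the median difference was 2.79, against 0.03 over all genes. Mgam, which splits starch fragments and maltose, was 11.65, 10.48 and 10.57 in small intestine, against 2.79, 4.18 and 8.23 in the others, and rose by 6.17 ± 0.59 (adjusted p = 1.6e-10). Treh, the enzyme for trehalose, rose by 5.34 ± 0.34 and Mep1b by 7.86 ± 0.18, with all 3 samples above all others. Anpep, an aminopeptidase, was 10.93, 9.58 and 9.86 in small intestine, against a highest of 9.82 in uterus, so 1 of the 3 small intestine samples lay inside the range of the others. Tmprss15, the enteropeptidase that activates trypsinogen, was 6.93, 3.93 and 5.19 in small intestine, above the highest other value of 3.54. Folh1, which trims dietary folate, was the gene called lower (-1.05 ± 0.15), at 2.59, 2.75 and 2.68 in small intestine, against a highest of 9.44 in kidney.

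Transporters for sugars, peptides and amino acids were called higher for 17 of 20 genes tested and lower for 0, with a median difference of 3.82. Slc5a1, the sodium-glucose cotransporter of the brush border, was 12.06, 11.15 and 11.25 in small intestine, against 3.24, 5.23 and 8.56, and rose by 5.56 ± 0.32 (adjusted p = 1.9e-16). Slc15a1, the carrier of di- and tripeptides, was 9.48, 8.0 and 8.11 in small intestine and at most 6.39 elsewhere. Slc6a20a, an imino acid carrier, rose by 6.45 ± 0.22, and Slc26a3 and Slc26a6, anion exchangers, by 5.57 ± 0.19 and 5.29 ± 0.28. These genes had no overlap with any other organ. Slc2a2, the basolateral glucose carrier GLUT2, was 11.49, 10.27 and 10.82, but kidney reached 12.02, so the groups overlapped. Slc6a6 (0.01 ± 0.19), a taurine carrier, Slc16a10 (0.16 ± 0.31), an aromatic amino acid carrier, and Slc36a1 (0.87 ± 0.37), a proton-coupled amino acid carrier, did not pass the test. The calls of Slc7a7 and Slc43a2, amino acid carriers, were lost without the first small intestine sample.

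Fat uptake and lipoprotein assembly showed a larger median difference, with 18 of 22 genes called higher, 0 lower and a median difference of 4.59. Fabp2 was 13.47, 12.79 and 13 in small intestine, against 2.36, 3.09 and 10.26, with the highest values in liver, and rose by 8.55 ± 0.6 (adjusted p = 5e-14). Mogat2, which rebuilds diglycerides inside the enterocyte, was 11.92, 10.41 and 10.56 in small intestine and at most 7.43 elsewhere. Mttp, which loads lipid onto apolipoprotein B, was 12.43, 11.6 and 11.58, against at most 10.95 in liver. The apolipoproteins Apoa1 (6.99 ± 0.38), Apoa4 (7.23 ± 0.71), Apoc2 (5.93 ± 0.62) and Apoc3 (6.61 ± 0.32) rose but overlapped with liver. Apob itself was 5.35, 4.63 and 3.39 in small intestine on its probe set, against at most 8.02, and did not pass the test (0.42 ± 0.57). Cd36, a fatty acid receptor, and Plin2, a lipid droplet coat protein, also did not pass the test (-1.21 ± 0.54 and -0.46 ± 0.21).

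For cholesterol and bile acids 6 of 13 genes tested rose and 0 fell (median difference 1.07). Npc1l1, the cholesterol uptake protein, was 10.07, 9.14 and 9.39 in small intestine, against 2.57, 3.04 and 3.81, and rose by 6.42 ± 0.2 (adjusted p = 1.3e-24). Its values were separate from those of every other organ, whereas Abcg5 and Abcg8, which pump sterols back out, rose by 6.02 ± 0.61 and 3.24 ± 0.51 and overlapped with liver. Slc51a and Slc51b, the basolateral bile acid exporter, rose by 4.81 ± 0.17 and 3.85 ± 0.39. The genes of ileal bile acid recovery were near the floor. The ileal carrier Slc10a2 was 2.92, 2.73 and 3.1 in small intestine, the ileal binding protein Fabp6 was 3.12, 3.59 and 3.47, and Fgf15, the ileal hormone, was 3.0, 2.7 and 2.49 and did not pass the filter. The segment of intestine sampled is not given in the labels.

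Among genes of iron, vitamin and retinoid handling 13 of 21 tested rose and 1 fell (median difference 2.59). Rbp2, which carries retinol in enterocytes, was 11.5, 11.34 and 11.2 in small intestine, against 3.43, 3.74 and 7.33, and rose by 7.14 ± 0.17 (adjusted p = 8.9e-28). Vdr, the vitamin D receptor, was 10.44, 10.34 and 10.38, and S100g, its calcium-binding target calbindin-D9k, was 10.98, 10.67 and 10.57, each above all other samples, whose highest values were 9.36 in kidney and 10.38 in uterus. Heph, which oxidises iron on its way out of the cell, rose by 4.46 ± 0.63. Cybrd1, the duodenal ferric reductase, was 4.61, 4.07 and 3.51 and did not pass the test (0.33 ± 0.32). Hamp, the iron hormone of the liver, was the gene that fell, at 3.0, 3.89 and 3.02, against at most 12.79.

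Structural genes of the brush border and of cell junctions rose in 25 of 34 cases and fell in 0, with a median difference of 2.71. Of the 34, 19 had all small intestine samples on top, against 4.51% of all genes tested. Vil1, the actin bundler villin, was 12, 11.13 and 11.28 in small intestine, against 3.64, 3.98 and 9.97. Myo1a, the brush border myosin, was 11.07, 10.22 and 9.91 in small intestine and at most 7.14 elsewhere, a difference of 6.56 ± 0.18 (adjusted p = 1.8e-26). Cdhr2, an intermicrovillar cadherin, rose by 6.62 ± 0.2, and its partner Cdhr5 by 4.55 ± 0.49. The tight junction gene Cldn15, which forms a sodium pore, was 10.7, 10.01 and 9.87 in small intestine and at most 5.03 elsewhere. Krt20, a keratin of mature gut epithelium, was 11.69, 10.56 and 10.59, against at most 7.88 in stomach. The keratins Krt8 and Krt19 and the tight junction genes Cldn3 and Cldn7 rose by 2.12 ± 0.34, 4.06 ± 0.65, 3.03 ± 0.48 and 4.04 ± 0.53. Cdh1, the epithelial cadherin, differed by 1.4 ± 0.67 (adjusted p = 0.091) and Ezr, the linker ezrin, by 0.61 ± 0.34, and neither passed the test. Epcam, an epithelial adhesion protein, rose by 2.63 ± 0.71, a call that was lost at 1.24 without liver among the other organs.

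Regulators of intestinal identity rose with them. Of 28 transcription factor genes tested, 17 were called higher and 2 lower, with a median difference of 2.78. Cdx1 was 7.86, 8.37 and 8.52 in small intestine, against 2.33, 2.82 and 4.0, and Cdx2 was 6.66, 7.15 and 7.26, against 3.07, 3.72 and 5.22. These caudal-type homeobox factors, which specify intestinal epithelium, rose by 5.42 ± 0.17 and 3.23 ± 0.24, with no overlap. Hnf4g, a nuclear receptor of enterocytes, rose by 2.89 ± 0.18 and was above all others. Hnf4a, the related receptor shared with liver and kidney, was 11.61, 11.44 and 11.57, against 2.96, 4.03 and 11.74. Gata4, Gata6 and Pdx1, factors of the proximal gut, rose by 3.68 ± 0.51, 4.28 ± 0.48 and 4.41 ± 0.19, each overlapping with stomach. Averaging all probe sets of a gene lowered Hnf4a to 3.02 and Pdx1 to 2.73 without ending the calls. Sox2, a factor of stomach and foregut, was 2.84, 2.67 and 2.55 and fell by 1.92 on the log2 scale, and Sox17, an endoderm and endothelial factor, fell by 3.11 with all 3 samples under all others.

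Enzymes of drug and alcohol metabolism rose without exception among those tested, 27 of 27, with a median difference of 4.88. The lists and their members were chosen with earlier results of these data known, so list counts may in part follow from that choice. Cyp3a11, the main intestinal and hepatic cytochrome P450 of its family, was 12.84, 11.34 and 12.28 in small intestine, against 2.74, 3.17 and 13.31. The upper end of the others was liver, so these groups overlapped while the difference was 7.56 ± 0.21 (adjusted p = 4.5e-26). Cyp2b10 was 11.42, 9.52 and 10.75 in small intestine and at most 8.86 elsewhere. Ces2e, a carboxylesterase, rose by 5.67 ± 0.48, Aldh1b1, a mitochondrial aldehyde dehydrogenase, by 6.59 ± 0.5, and Abcb1a, the drug efflux pump, by 4.87 ± 0.52, all 3 without overlap. The smallest increases were those of Gstp1, a glutathione transferase (1.1 ± 0.16), and Aldh1a1 (1.71 ± 0.47), whose call was lost without the first small intestine sample.

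In arginine and nitrogen metabolism 8 of 13 genes tested rose and 2, Ass1 and Arg1, fell (median difference 2.22). Cps1, which makes carbamoyl phosphate, was 12.09, 12.22 and 12.78 in small intestine, against 2.99, 3.37 and 12.94, with the highest values in liver. Otc, which makes citrulline, was 11.21, 11.15 and 10.8, but its increase of 6.84 ± 0.47 fell to 0.8 and the call was lost when probe sets open to cross-hybridisation were left out. Ass1, which joins citrulline and aspartate, was 3.63, 3.35 and 2.77 in small intestine, against 4.1, 6.04 and 11.59, below every other sample, and fell by 3.42 on the log2 scale (SE 0.56, adjusted p = 6.8e-06). Asl, the step after it, did not pass the test (-0.73 ± 0.46). Arg2, the mitochondrial arginase, was 12.29, 11.83 and 11.83 in small intestine and at most 9.65 elsewhere, whereas Arg1, the cytosolic arginase, was 3.77, 4.26 and 5.27, against at most 12.69 in liver. Oat, which interconverts ornithine and glutamate semialdehyde, rose by 1.35 ± 0.23 and Aldh18a1, which makes that semialdehyde from glutamate, by 2.22 ± 0.24, both above all others.

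Fatty acid oxidation rose for 8 of 15 genes and fell for 0, by a smaller median difference of 1.05. Cpt2, which hands fatty acids to mitochondrial oxidation, was 11.16, 10.3 and 10.35 in small intestine, against 5.96, 7.67 and 10.21, and rose by 2.36 ± 0.33. It was the 1 gene of this list with all 3 samples above all others, and kidney held the highest of the other organ means for 13 of 15 genes.

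**Figure D2:**
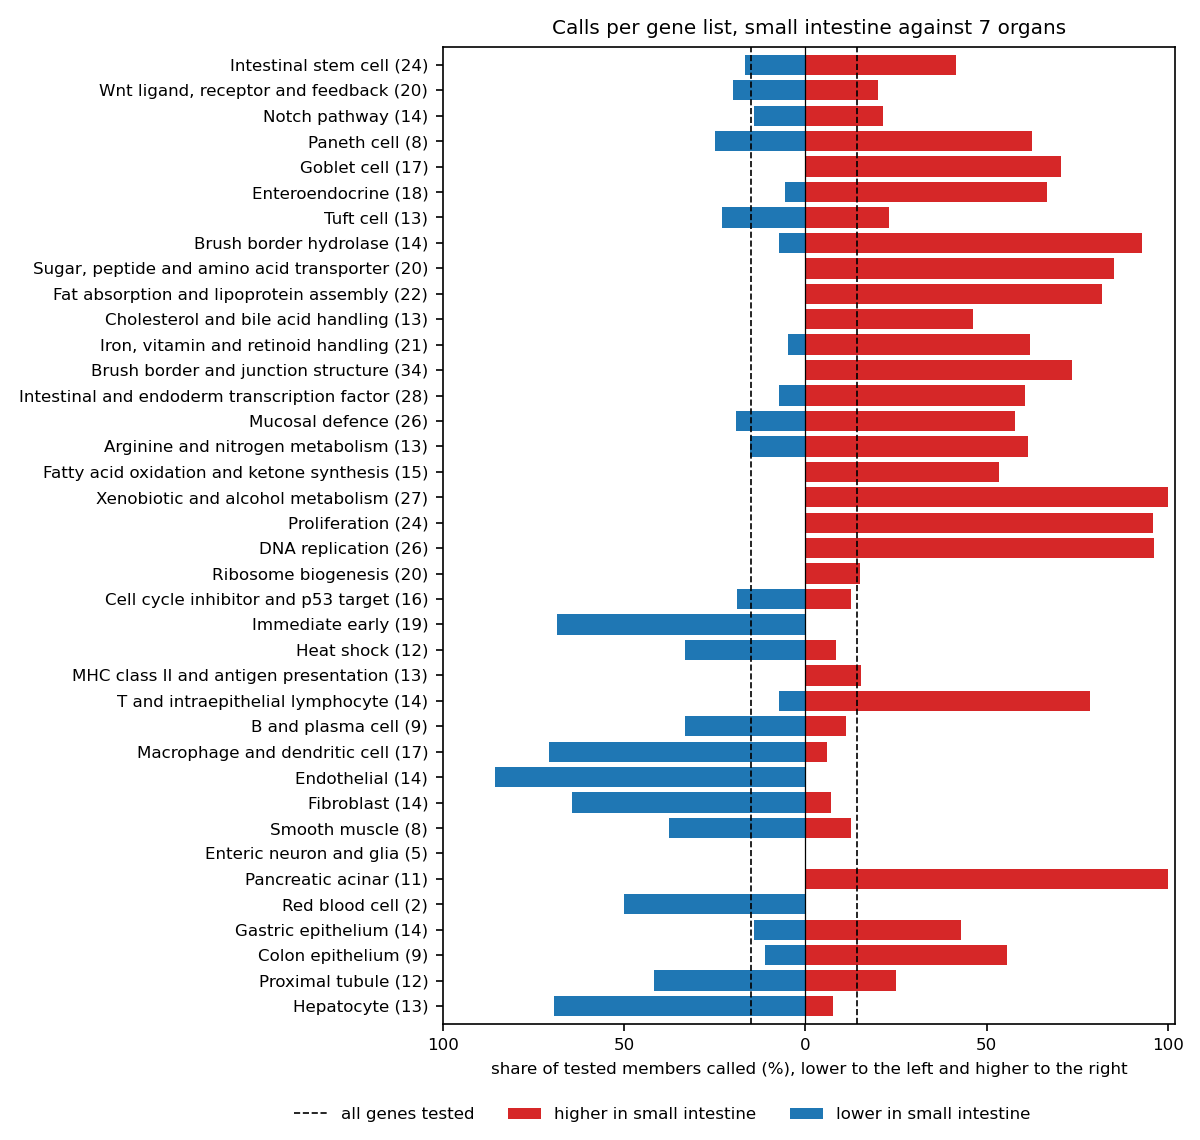
Share of the tested genes of each list that were called higher or lower in small intestine against the 7 other organs (x axis, percent), with dashed lines at the shares over all 13108 genes, 14.3% higher and 15.1% lower. The drug metabolism list reaches 27 of 27 genes higher, and the macrophage, endothelial and immediate early lists lie on the side of lower calls. The lists were chosen with earlier results of these data known.

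Genes that mark crypt stem cells did not move as one. Of 24 tested, 10 were called higher and 4 lower (median difference 0.92), and without the first small intestine sample the counts were 12 and 2. Olfm4, a secreted marker of mouse crypt base cells, was 11.41, 11.62 and 12.12 in small intestine, against 2.66, 4.47 and 8.26, and rose by 6.76 ± 0.48 (adjusted p = 6.3e-14). Smoc2, a matrix protein of stem cells, was 8.33, 8.6 and 9.01 in small intestine, against at most 8.19 in stomach, and rose by 3.49 ± 0.5. Lgr5, the R-spondin receptor that defines these stem cells, was 5.64, 7.05 and 7.71 in small intestine, against 2.93, 4.77 and 9.6. The stomach samples held its highest values, the groups overlapped, and the difference of 1.1 ± 0.53 missed the threshold (adjusted p = 0.093). Ascl2, a Wnt-driven stem cell factor, was 5.46, 6.41 and 7.4 and rose by 2.61 ± 0.23 with stomach at 7.03. Igfbp4, Tnfrsf19, Fstl1 and Nav1 were the 4 called lower, and fell by 1.58 to 2.99 on the log2 scale. Of reserve stem cell genes, Hopx rose by 1.81 ± 0.45, Bmi1 did not pass the test (-0.65 ± 0.29), and Tert was under the filter.

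Wnt and Notch genes were called in both directions. Among 20 Wnt genes 4 were higher and 4 lower (median difference -0.26), beside 29.4% of all genes called in either direction, and the lower calls numbered 1 or 2 when any small intestine sample was left out. Fzd5, the Wnt receptor of crypt epithelium, was 10.1, 10.33 and 10.14 in small intestine and at most 8.93 elsewhere. Axin2, a Wnt feedback gene, was 6.6, 6.77 and 7.89, against 3.21, 5.02 and 7.14, and rose by 1.9 ± 0.34. Wnt3, the Paneth cell ligand, stayed under the filter at 2.73, 2.69 and 2.68. Of 14 Notch genes 3 rose and 2 fell (median difference -0.41), with 4 lower when kidney was left out of the other organs. Atoh1, the switch toward secretory fate, was 5.51, 7.23 and 6.2, against 2.53, 2.99 and 5.68, and rose by 3.24 ± 0.3. The ligand Dll1 rose by 2.59 ± 0.34 and the feedback gene Nrarp by 2.97 ± 0.57. Hes1, the canonical target, was 7.22, 7.13 and 7.68 and did not pass the test (-0.39 ± 0.39).

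Cell division genes were high. In the proliferation list 23 of 24 genes tested rose and 0 fell (median difference 3.13), and in the DNA replication list 25 of 26 rose and 0 fell (median difference 1.83). Mki67, the proliferation antigen, was 9.12, 9.66 and 9.78 in small intestine, against 3.34, 5.95 and 9.43, and rose by 3.38 ± 0.56 (adjusted p = 8e-06). Top2a, the topoisomerase of dividing cells, was 8.84, 9.52 and 9.63 in small intestine and at most 8.7 elsewhere. Stomach held the highest of the other organ means for 14 of the 26 DNA replication genes and uterus for 11. The small intestine values of Mki67 overlapped with those of stomach. Of the 24 proliferation genes, 8 had all small intestine samples on top, against 4.51% of all genes tested. Mcm5, a subunit of the replicative helicase, rose by 2.44 ± 0.37, whereas Pcna, the replication clamp, differed by 0.73 ± 0.28 and missed the fold threshold. Foxm1, a factor of mitotic genes, was the proliferation gene without a call (-0.15 ± 0.21). Ribosome biogenesis genes had 3 of 20 called higher and 0 lower (median difference 0.61), a share near the 14.3% of all genes, and the count lay between 0 and 4 over the settings tried. Among 16 cell cycle inhibitors and p53 targets 2 rose and 3 fell, beside 14.3% and 15.1% of all genes. Cdkn2b, the inhibitor p15, was 9.45, 9.56 and 9.41 in small intestine and at most 8.22 elsewhere.

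Paneth, goblet and enteroendocrine genes rose in most cases. Of 23 Paneth genes listed 9 were measured and 8 tested. Of these 8, 5 rose and 2, Copz2 and Nupr1, fell (median difference 4.64). Copz2 was also called lower against stomach, kidney and liver alone, whereas Nupr1 was called higher against kidney and liver. Defa21, another alpha-defensin, was 6.89, 9.17 and 9.22 in small intestine and at most 3.28 elsewhere. Mmp7, the protease that activates defensins, was 7.99, 9.98 and 9.71, against a highest of 11.6 in prostate, and so overlapped. Lyz1, the Paneth lysozyme, was 3.93, 4.52 and 4.67 and missed the fold threshold (0.76 ± 0.26), while Lyz2, its near-identical copy in macrophages, was 12.28, 12.49 and 12.7 and rose by 1.56 ± 0.41. Probes may not tell the 2 copies apart.

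Goblet cell genes rose in 12 of 17 cases and fell in 0 (median difference 2.03). Tff3, the intestinal trefoil peptide, was 12.58, 12.71 and 12.36 in small intestine, against 3.21, 4.07 and 7.25, and Zg16, a mucus lectin, was 12.45, 12.22 and 11.9, against 2.73, 3.19 and 8.89. Both were far above all other samples. Agr2, a folding factor for mucins, was 11.18, 10.96 and 11.04 and overlapped with stomach at 13.3. Spdef, a goblet maturation factor, did not pass the test (-0.23 ± 0.22).

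Enteroendocrine genes rose in 12 of 18 cases and fell in 1 (median difference 2.1). Gip, the incretin of proximal K cells, was 9.57, 10.12 and 10.1 in small intestine, against 2.79, 3.35 and 9.09, and Cck, the satiety peptide of I cells, was 8.06, 8.72 and 7.69, against 2.45, 2.78 and 6.96. Sct, the hormone secretin, and Gcg, the source of GLP-1, rose by 4.33 ± 0.29 and 4.14 ± 0.16. These 4 hormones had no overlap with other organs, the stomach included. Pyy, a hormone of the distal gut, was 4.05, 4.65 and 3.88 and did not pass the test (0.46 ± 0.3). Tuft cell genes had 3 of 13 higher and 3 lower (median difference -0.05), beside 14.3% and 15.1% of all genes. The 3 lower were Kctd12, Alox5ap and Dclk1. Tuft cell calls ranged between 0 and 4 in either direction over the settings tried. Pou2f3 and Il25, a tuft factor and its cytokine, were under the filter.

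Mucosal defence genes rose in 15 of 26 cases and fell in 5 (median difference 1.65). Reg3g, a lectin that kills Gram-positive bacteria, was 10.89, 10.64 and 10.67 in small intestine, against 3.28, 3.81 and 7.62. Reg4 was 8.63, 9.42 and 9.28 and at most 3.75 elsewhere, and Ccl25 was 12.65, 12.57 and 12.31 and at most 6.21 elsewhere. Pigr, which carries IgA across epithelium, was 12.66, 12.36 and 12.53, close to salivary gland at 12.08, and rose by 2.92 ± 0.45. The 5 lower genes were Lcn2, Ltf, Saa3, Slpi and Muc1, of which Ltf, lactoferrin, was 3.66, 3.46 and 3.93 in small intestine, against 2.83, 5.78 and 12.61. Without the second small intestine sample 2 of these lower calls were left.

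The genes with the largest decreases were chosen to lie below every sample of the other organs, stomach included. Their signal in those organs follows in part from that choice. Of the 1984 called lower, 261 had all 3 small intestine samples under all others, and the 15 largest differed by -4.9 to -6.25. Lifr, the receptor of leukaemia inhibitory factor, was 3.34, 3.06 and 3.18 in small intestine, against 7.67, 9.57 and 11.93, and fell by 6.25 on the log2 scale (SE 0.43, adjusted p = 2.5e-14), or by 3.5 with the mean of its probe sets. Lpl, lipoprotein lipase, was 3.55, 2.97 and 3.67 in small intestine, against 5.82, 9.39 and 12.59. C4b, a complement component, was 4.04, 3.94 and 3.76, against 7.22, 10.46 and 13.15. The others were Nrp1 (-5.61), a co-receptor of VEGF and semaphorins, the matrix protein Sparc (-4.9), the galectin Lgals1 (-5.0), the integrin adaptor Fermt2 (-5.36), the RNA-binding protein Qk (-5.03), the interferon-induced GTPase Iigp1 (-5.21), the enzymes Cyp2f2 (-5.53) and Inmt (-5.27), the zinc finger factor Plagl1 (-5.16), and Tceal8 (-5.16), Crip2 (-5.16) and Tm4sf1 (-4.93). In stomach the values of Fermt2 and Inmt were also low, with highest values of 4.61 and 3.55. Others were well detected there, such as Lifr, C4b and Plagl1, with stomach means of 8.0, 9.02 and 9.96.

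Immediate early genes, which respond within minutes to stimuli that include tissue dissociation, fell in 13 of 19 cases and rose in 0 (median difference -1.44). Dusp1, a phosphatase that shuts off MAP kinases, was 9.2, 8.79 and 9.26 in small intestine, against 9.81, 12.26 and 13, below every other sample, and fell by 2.76 on the log2 scale (SE 0.27). Nr4a1, an orphan nuclear receptor, was 6.1, 6.75 and 6.79, against 5.97, 10.48 and 12.25. Fos did not pass the test (-0.47 ± 0.31). The mean level of the list was 7.61 to 7.93 in small intestine, against 7.12 to 7.29 in kidney, 7.48 to 8.35 in liver and 8.85 to 10.77 in the other 5 organs. Heat shock genes had 1 of 12 higher and 4 lower, beside 14.3% and 15.1% of all genes. Hspb1, a small heat shock protein, was 6.44, 5.05 and 5.44 in small intestine, against 7.86, 10.01 and 12.95. The part of handling time in these values was not tested.

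Some markers of other cell types also differed between the organs. Over all genes 14.3% were called higher and 15.1% lower, and lists with counts near these shares do not stand out. Macrophage genes fell in 12 of 17 cases and rose in 1, endothelial genes fell in 12 of 14 and rose in 0, and fibroblast genes fell in 9 of 14 and rose in 1 (median differences -2.92, -2.52 and -2.25). The macrophage list averaged 5.05 to 6.08 in small intestine, against 4.52 to 4.93 in kidney and stomach and 6.63 to 10.95 in the other 5 organs. The endothelial list averaged 3.78 to 3.84 in small intestine, against 4.41 to 10.98 in the others, and its defining markers Cdh5 (2.86, 2.82 and 3.66) and Pecam1 (3.1, 3.04 and 3.36) were near the floor of the array. Without liver and lung among the other organs 4 endothelial calls were left. Fibroblast genes averaged 3.8 to 4.45 in small intestine, against 3.79 to 9.82. Fbln1, a matrix protein, was the fibroblast gene that rose, at 9.72, 8.03 and 8.41. Smooth muscle genes had 1 of 8 higher and 3 lower (1 lower without uterus), neuron and glia genes 0 and 0 of 5, red cell genes 0 and 1 of 2, and B and plasma cell genes 1 and 3 of 9. Antigen presentation genes gave 2 higher and 0 lower of 13, proximal tubule genes 3 and 5 of 12, and hepatocyte genes 1 and 9 of 13, with 2 hepatocyte genes lower when liver was left out of the other organs. Of the proximal tubule genes 3 were lower without the first small intestine sample and 0 when kidney was left out. The part of such cells in the genes called lower was not tested.

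Lymphocyte genes went the other way. Of 14 T and intraepithelial lymphocyte genes 11 rose and 1 fell (median difference 2.45). Gzma, a granzyme of cytotoxic cells, was 7.57, 11.02 and 9.52 in small intestine, against 2.54, 3.03 and 5.83, and rose by 6.22 ± 0.4 (adjusted p = 4.5e-15). Cd3g, a chain of the T cell receptor complex, was 5.51, 9.61 and 6.15, against at most 4.45, so that the second small intestine sample stood apart from the other 2. The list averaged 4.77, 7.18 and 5.34 in the 3 samples, against 3.39 to 4.63 over the other organs. Without the second sample 8 genes were called higher, and with a stricter filter on low levels 6. The difference of Cd3g was then 2.33 without that sample, against 3.59 with it, and that of Klrd1, an NK cell receptor, 0.84, against 2.54, with its call lost. Cd4 was at 4.16, 3.28 and 4.54 and did not pass the test (-0.33 ± 0.23).

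Pancreatic enzyme genes and stomach genes were also detected in the small intestine samples. All 11 acinar genes tested were called higher, although none was above all others, with a median difference of 4.06. Amy2a5, pancreatic amylase, was 11.81, 9.78 and 11.22 in small intestine, against 2.3, 2.72 and 12.18. The acinar list averaged 9.39, 7.15 and 8.6 in the 3 small intestine samples, against 5.6 to 8.69 in stomach, 4.03 to 9.95 in liver and 3.26 to 4.92 in the other 5 organs, while the acinar factor Ptf1a was under the filter at 3.35, 3.3 and 3.27. Of 14 gastric genes 6 rose and 2 fell (median difference 0.41), and over the settings tried the higher calls lay between 3 and 8 and the lower calls between 0 and 5, with 5 lower without the third small intestine sample. Gkn2, gastrokine 2 of surface mucous cells, was 12.17, 9.38 and 11.92 in small intestine, against 13.9 at most in stomach, but Pgc (3.29, 3.24 and 4.32) and Cblif (3.35, 3.69 and 3.78), which define chief and acid-zone cells, were near the floor. The gastric list averaged 6.44, 5.12 and 6.65 in small intestine, against 10.98 to 11.85 in stomach and 3.53 to 4.15 in the other 6 organs. The part of pancreatic or gastric RNA in the results above was not tested. Of 9 genes used as colon markers 5 rose and 1 fell (median difference 2.74), beside 14.3% and 15.1% of all genes. Those that rose were Slc26a3, Aqp4, Car4, Sycn and Mettl7b. Of these only Sycn had no call against stomach alone, where 10 of 11 acinar genes tested also had none. The part of pancreatic RNA in the level of Sycn was not tested. Car1, a colonic carbonic anhydrase, was 2.91, 3.06 and 3.47 in small intestine and did not pass the test (-0.4 ± 0.3), and Hoxb13, a homeobox gene of the hindgut and prostate, was the gene that fell, at 3.8, 3.07 and 3.28, against a highest of 11.39 in prostate.

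**Figure D3:**
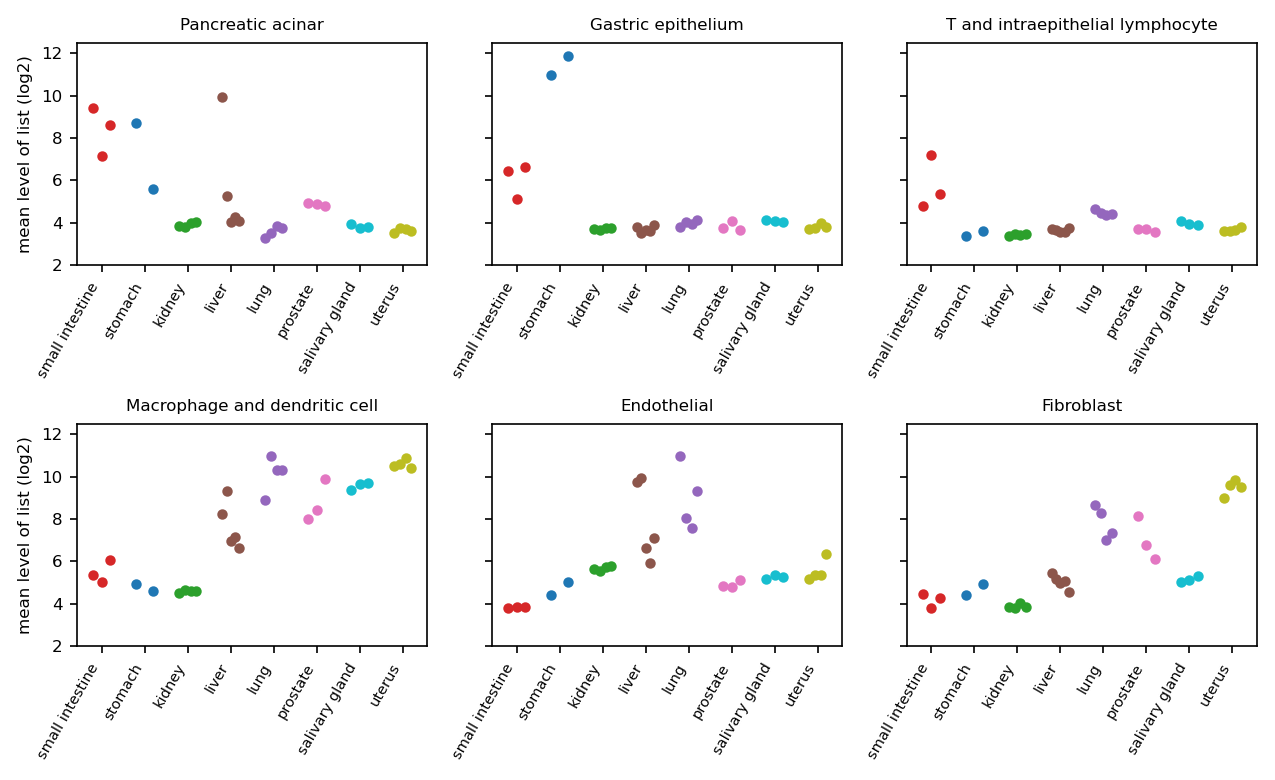
Mean log2 level of 6 marker lists of other cell types (y axis) in each sample, grouped by organ with small intestine first. The lymphocyte panel shows the second small intestine sample at 7.18 above the other 2, at 4.77 and 5.34, and the pancreatic panel shows small intestine at 7.15 to 9.39 with 1 liver sample at 9.95.

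Against the stomach alone, the other gut epithelium of the series, the enterocyte genes still set the small intestine apart. Of 10991 genes tested, 951 were called higher in small intestine (8.65%) and 889 lower (8.09%), 16.7% in all, with a median difference of 0.07. This comparison and those with kidney and liver share the 3 small intestine samples with the one above, so they are not independent of it. Transporters were higher for 16 of 19 genes and lower for 1 (median 4.93), fat absorption genes for 17 of 22 and 0 (3.41), hydrolases for 11 of 13 and 0 (3.42), and drug metabolism genes for 19 of 27 and 0 (4.59). Cyp3a11 differed by 8.81 ± 0.31 and Fabp1, the fatty acid binding protein shared with liver, by 8.53 ± 0.6. Cdx1 differed by 5.48 and Cdx2 by 2.77, whereas Gata4 (-0.06), Gata6 (0.07) and Pdx1 (0.61) did not pass the test. Proliferation genes gave 1 higher and 1 lower call of 24 (median 0.69), with 4 higher calls without the first stomach sample and 0 without the second, and DNA replication genes 1 and 0 of 26 (median 0.54).

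Stem and secretory genes were divided between the 2 epithelia. Of 24 stem cell genes 5 were higher in small intestine and 5 lower, but 3 were higher without the second or the third small intestine sample or the second stomach sample, and 3 lower without the first small intestine sample or either stomach sample. Olfm4 was higher by 5.06 and Clca3b, a chloride channel regulator, by 4.36, while Lgr5 (-2.68), Cd44 (-3.23), Sox9 (-2.53), Ephb3 (-2.14) and Gkn3 (-4.14) were lower. The lower calls of Lgr5 and Sox9 were lost in some settings and rest on 2 stomach samples. Of 17 goblet genes 7 were higher and 5 lower, or 3 lower without cross-hybridising probe sets, and Muc13, a membrane mucin, was higher by 6.48. Of 18 enteroendocrine genes 6 were higher and 5 lower, or 8 lower without the second stomach sample: Sct (3.87), Gcg (3.34) and Cck (2.96) were higher, and Ghrl, which encodes ghrelin (-3.38), and Sst, which encodes somatostatin (-1.71), lower. All 14 gastric genes tested were lower in small intestine (median -5.89), among them Pgc by 9.11 on the log2 scale and Cblif by 9.21.

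Against kidney, absorptive transporters were divided. Of 11082 genes tested, 2051 were called higher (18.5%) and 2020 lower (18.2%), 36.7% in all, with a median difference of 0.09. Transporters split into 6 higher and 5 lower of 20 (median -0.62), with 3 lower when the second small intestine sample was left out and 8 lower with array weights. The 3′ minus 5′ actin difference, a measure of RNA integrity, was 0.696 to 1.189 in small intestine, against 1.666 to 1.805 in kidney. That of Gapdh was 0.457 to 0.631 in small intestine, against 0.775 to 1.012 in kidney. The part of RNA integrity in the result was not tested. For 36.5% of all genes tested every small intestine sample lay above every kidney sample. Slc15a1 (5.76), Slc26a3 (6.01) and Slc6a20a (3.09) were higher in small intestine, and Slc6a19, the neutral amino acid carrier (-2.47), Slc7a9, the cystine carrier (-1.27), and Slc1a1, a glutamate carrier (-2.07), lower. Cubn and Amn, which together form the receptor for vitamin B12 with intrinsic factor, were lower by 5.01 and 2.44 on the log2 scale. Fatty acid oxidation had 0 higher and 3 lower of 15 (median -0.41). Fat absorption genes gave 16 higher of 22 and 0 lower (median 4.23), brush border and junction genes 22 of 34 and 0 (2.28), and proliferation genes 23 of 24 and 0 (3.99). All 12 proximal tubule genes were lower (median -5.85), with Miox, the inositol oxygenase, at -9.76. Immediate early genes, lower against the 7 organs, were called higher for 7 of 16 and lower for 3 against kidney (1 lower without cross-hybridising probe sets).

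Against liver, fat absorption and drug metabolism genes gave smaller median differences than brush border genes. Of 11264 genes tested, 2913 were called higher (25.9%) and 1714 lower (15.2%), 41.1% in all, with a median difference of 0.32. That median was 0.13 after quantile normalization and 0.2 after centring each array on its median. The 3′ minus 5′ difference of Gapdh, a measure of RNA integrity, was 0.457 to 0.631 in small intestine, against 0.899 to 1.229 in liver. That of actin overlapped, at 0.696 to 1.189 in small intestine and 1.047 to 1.727 in liver. The part of RNA integrity in the result was not tested. Drug metabolism genes were higher for 13 of 27 and lower for 2 (median 0.57), 9 higher without the first small intestine sample, and 8 lower with array weights or 4 lower without the second liver sample. Fat absorption genes were higher for 10 of 22 and lower for 3 (median 1.17). Fabp1 (-0.01 ± 0.48), Apoa1 (-0.53 ± 0.45) and Cps1 (0.09 ± 0.45) did not pass the test, while Mttp (2.42), Apoa4 (2.88) and Fabp2 (4.33) were higher in small intestine. Ass1 (-6.54), Asl (-2.75) and Arg1 (-7.67) were lower and Arg2 (8.89) higher. All 13 hepatocyte genes tested were lower (median -9.36), with Alb, serum albumin, at 3.32, 3.57 and 3.44 in small intestine, against 13.48 to 13.8 in liver. Transporters were higher for 15 of 19 and lower for 0 (median 5.07), brush border and junction genes for 32 of 34 and 0 (4.46), and proliferation genes for 23 of 23 and 0 (4.12).

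**Figure D4:**
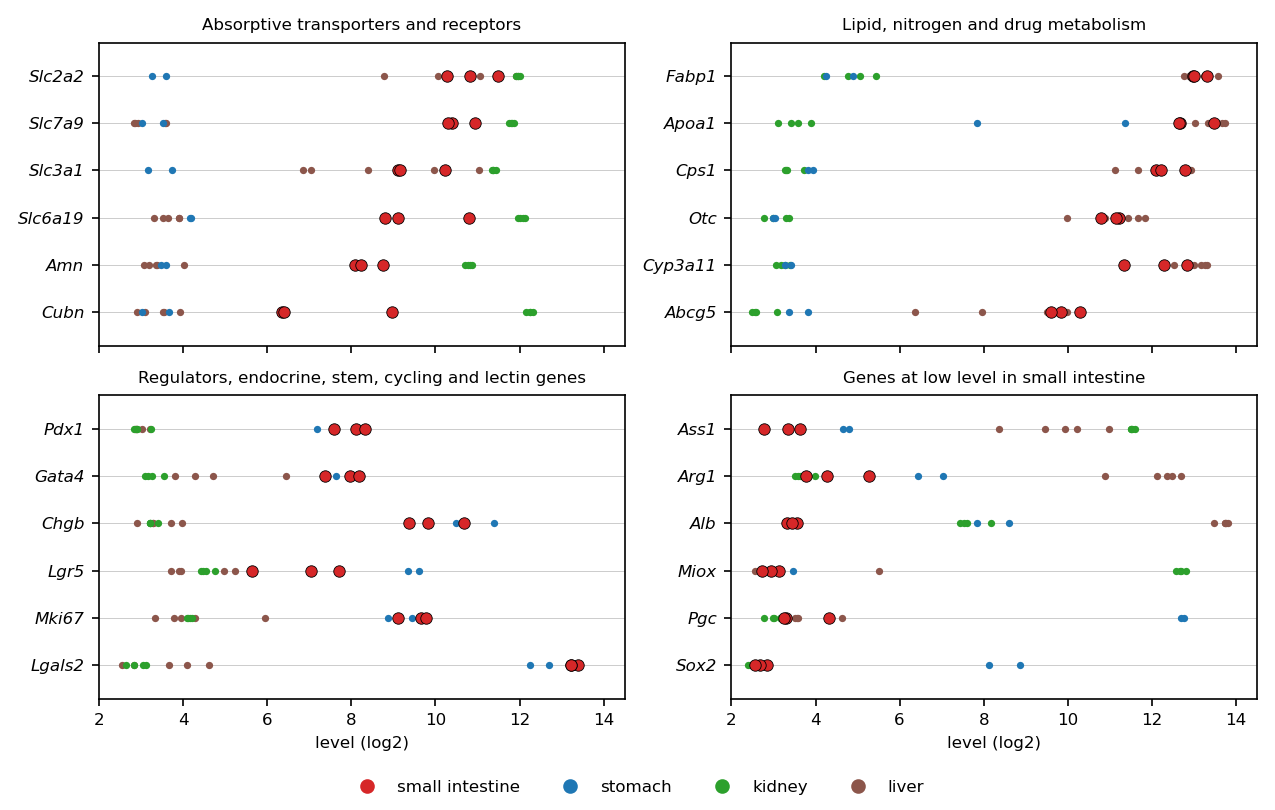
Log2 level (x axis) of 24 genes in each sample of small intestine, stomach, kidney and liver, in 4 panels of transporters and receptors, of metabolism, of regulators and secretory, stem or division genes, and of genes low in small intestine. Fabp1 and Cps1 overlap between small intestine and liver, Slc6a19 and Cubn are highest in kidney, and Gata4 overlaps with stomach.

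The 3 small intestine samples differed among themselves along the crypt and villus lists. Over 10022 genes the median SD between them was 0.29, and 339 genes (3.38%) had an SD above 1. The first sample had the highest mean of the absorptive lists and the lowest of the crypt lists. Hydrolases averaged 9.25, 7.81 and 8.05 in samples 1, 2 and 3, fat absorption genes 11.11, 10.09 and 10.24, and drug metabolism genes 11.27, 10.03 and 10.41. Stem cell genes averaged 6.73, 7.14 and 7.48, Paneth genes 7.56, 8.41 and 8.43, and proliferation genes 7.39, 7.95 and 8.05. Prom1 itself was 8.01, 9.78 and 10.19 in the same order. With 3 samples no test was made of these orders. As a measure of RNA integrity, the 3′ actin probe set exceeded the 5′ set by 0.696, 1.189 and 1.096 in these samples. For Gapdh the same difference was 0.457, 0.478 and 0.631, which does not set the first sample apart. The part of RNA integrity in the orders above was not tested.

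**Figure D5:**
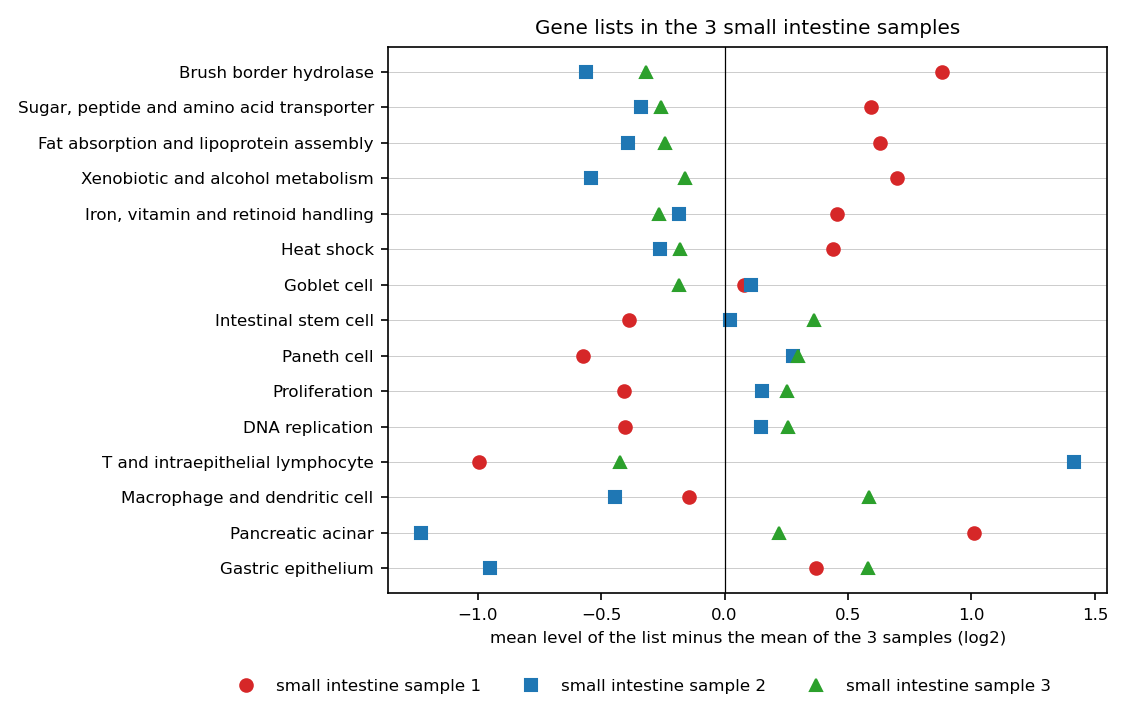
Mean level of 15 gene lists in each small intestine sample minus the mean of the 3 samples (x axis, log2). The first sample lies on the high side for hydrolase, fat and drug metabolism genes and on the low side for stem, Paneth and proliferation genes, and the second lies far to the high side for lymphocyte genes.

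The genes with the largest SD among the 3 samples were of other kinds. Xist, the RNA of the inactive X chromosome, was 4.47, 11.3 and 4.57, and Eif2s3y, on the Y chromosome, was 8.55, 2.54 and 8.19, so the second sample had the female pattern and the other 2 the male pattern. The spread among the 3 samples therefore includes a difference between animals. Retnlb, a goblet cell peptide induced by microbes and worms, was 10.51, 5.26 and 4.16, and its increase of 3.58 ± 0.52 over the other organs was 1.65 without the first sample. St3gal4, a sialyltransferase, was 4.62, 10.17 and 10.13. Dbp, a clock output factor, was 8.03, 5.36 and 3.36 and did not pass the test against the other organs (-0.93 ± 0.66). The lymphocyte genes Klrd1 (3.22, 9.41 and 5.43), Ctsw (5.45, 9.71 and 5.68) and Trgv1 (3.55, 8.06 and 4.66) peaked in the second sample, as did Ifi205 (2.94, 7.75 and 5.0), an interferon-induced gene, and Astx6 (8.69, 2.69 and 3.04) was high in the first.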

How the data were processed

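RNA of Prom1-positive cells was hybridised to Affymetrix arrays. The deposited values are log2 levels per probe set made by the authors with Partek 6.6, per the submitters' processing notes, but how they corrected background, normalized arrays and summarized probes is not stated in the labels read here. The number of arrays, not read depth, limits the precision.

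Samples were grouped by their source label. Of 45141 probe sets 28898 named exactly 1 gene and were used, 551 named several genes, 15588 were not annotated here and 104 were controls, and each of 17098 genes took the probe set with the highest mean over all arrays. limma 3.58.1 in R 4.3.3 was fitted over all 40 sorted samples (30 residual degrees of freedom), with contrasts of small intestine against the equal-weight mean of 7 organ means and against stomach, kidney and liver, and eBayes with an intensity trend. Genes whose mean exceeded the 40th percentile of the values (4.06) in at least 1 compared group were tested, with Benjamini-Hochberg adjustment over all of them. A call needed an adjusted p under 0.05 and a difference of at least 1. On simulated data with known differences of 1.5, 2 and 3 the comparison with 7 organs recovered 80.9%, 86.4% and 98.5% of changed genes over 11159 genes. The comparison with stomach recovered 44.1%, 69.7% and 92.4%, so a gene without a call against stomach may still differ. At a difference of 1.5 the recovery was 73.5% against kidney and 70.6% against liver. The 66 to 68 changed genes of each size were drawn from genes with means well over the filter. All organs were simulated at the same mean, and far fewer genes changed than were called in the data. The rates therefore need not hold for genes near the filter or for the real comparisons.

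Named genes are Prom1, the 20 largest increases and 15 largest decreases among called genes whose small intestine samples lay outside the range of all others, the 10 largest in each direction against each single organ, the 10 with the largest SD among the small intestine samples, and members of 38 gene lists (650 of 750 genes measured). The members and lists were chosen with earlier results of these data known. Promoters come from RefSeq. Alternatives covered normalization, scaling, filters, probe sets, array weights, priors, left-out samples and organs.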

Additional observations from a re-analysis of the deposited data

Results flagged for a closer look

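Dixon's test for a sample far from the rest of its group was applied to 12 measures, 48 groups in all, and 4 groups passed its critical value. Chance flags about 1 group in 20. None of the 4 was the small intestine, whose 3 samples are too few for the test. Prom1 was 5.3 in the third lung sample, against 6.6 to 6.79 in the other lung samples. The pancreatic acinar genes averaged 9.95 in the first liver sample, against 4.03 to 5.28 in the other liver samples. The stem cell genes averaged 6.22 in the first lung sample, against 5.6 to 5.68 in the others. The 3′ minus 5′ actin difference was 0.41 in the fourth uterus sample, against 0.89 to 0.99 in the others.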

How the results depend on the processing

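The counts of genes called higher and lower stayed within 1.5 times in all 194 alternative counts. Leaving out 1 sample at a time gave 1790 to 1911 higher and 1694 to 2046 lower against the 7 organs, 692 to 907 and 664 to 806 against stomach, 1917 to 2002 and 1887 to 1954 against kidney, and 2664 to 3218 and 1534 to 1743 against liver. Other alternatives, which include a mean without liver and lung that was chosen after seeing the data, gave 1568 to 2246 higher and 1591 to 2201 lower against the 7 organs. Over single genes and settings, 56488 values kept their call or lack of one, 949 lost a call and 590 gained one. Another 6 turned direction, each with a difference of at least 1 in size before or after the change. Against the 7 organs Anxa10 went to -0.08 without probe sets open to cross-hybridisation (2.51 as reported) and Slc12a2 to -0.11 without liver and lung (1.05). Against stomach Scg2 was 1.48 without the first stomach sample and -2.35 without the second (-0.44 with both) and Tyms 1.22 without cross-hybridising probe sets (-0.25). Against liver Abcc2 was -1.11 with array weights (0.29) and Wdr12 -0.11 with the mean of probe sets (1.09). The cause of these changes was not tested. Of 455 called genes examined against the 7 organs, 104 changed their call and 137 moved by over 1.5 times in at least 1 setting. A gene that a stricter filter left untested was not counted as changed in that setting, so these counts may be low. No paired analysis was possible because the replicate numbers of the organs come from the order of the samples and pair nothing. Levels near the floor of the array limit what can be said of genes such as Slc10a2.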

Other observations

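The series also holds 3 dissected small intestinal adenomas, whose RNA was extracted with another kit and which enter no test here. Alpi was 9.39, 12.2 and 10.48 in the adenomas, against 2.58, 2.9 and 11.13 (lowest, median and highest) in the 48 tumours and metastases that were not gut adenomas, and Cdh17 was 10.08, 11.35 and 10.65, against 2.41, 5.03 and 10.88. In large intestinal adenomas the medians were 9.2 for Alpi and 11.58 for Cdh17, and in gastric adenomas 8.53 and 4.85. Adh6a (3.33, 9.9 and 3.63), Arg2 (3.56, 8.42 and 3.34) and Cps1 (6.95, 10.44 and 4.15) were higher in the second adenoma than in the other 2. Defa39 was 9.93, 10.65 and 3.03. Lgr5 was 9.45, 6.65 and 8.58 and Olfm4 9.13, 9.03 and 7.66. Lifr, near the floor in the sorted small intestine cells, was 7.29, 6.39 and 6.67 in the adenomas.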
